A study of Homo sapiens with 2 samples.

Results

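The interleukins and their receptor chains were read in the KG1 line, which was established from a patient with acute myeloid leukaemia and resembles immature progenitors. The genes were chosen by symbol: every gene named IL followed by a digit in the platform's annotation, leaving out 6 genes (IL18, IL18R1, IL18RAP, IL18BP, IL1RL1 and IL12RB2). This gave 82 genes of the 19775 on the array, read by 146 of its 54675 probe sets. They comprise 39 secreted interleukins, 36 receptor chains and 7 other transcripts that carry an interleukin symbol. One group received an siRNA against T-bet (siRNA-Tbet) and the other a control siRNA (siRNAc), 1.98 µg each by electroporation. Both groups rested for 5 h and then received 10 ng/ml of interleukin-18 for 12 h, so all values come from stimulated cells and no unstimulated culture is part of the comparison. Each group holds 1 array, so no difference has a replicate check and no p-value was computed, and the number of arrays limits the precision.

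Interleukins are secreted proteins through which white blood cells, and many other cells, signal to each other. Most bind receptors built from a private chain and a chain shared between several interleukins, and signal through JAK kinases and STAT factors; the IL-1 and IL-17 families use their own adaptor proteins and feed into NF-κB. TBX21 encodes T-bet, a master regulator of type 1 immunity, in which IL-12, IL-15 and IL-18 drive interferon-γ. IL-4, IL-5 and IL-13 mark the opposing type 2 response.

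Values are MAS5 signals, in arbitrary linear units, and both arrays had the same trimmed mean as deposited. Signals of different genes are not compared with each other, because each probe set has its own brightness. A signal below 146 (the median of the siRNAc array, used as a common floor) was raised to it before a ratio was taken, and a gene counted as measured when at least 1 array was above it. A ratio against a raised value is a lower bound, written as "at least". The target TBX21 read 1839 with siRNA-Tbet and 3581 with siRNAc, a log2 ratio of -0.96, so 51.3% of the transcript signal was left and the cells are not a T-bet null. IFNG, the best known T-bet target, had 31243 with siRNA-Tbet and 35136 with siRNAc, a log2 ratio of -0.17. Of the progenitor markers read, CD34 (17130 with siRNA-Tbet and 15839 with siRNAc), HLA-DRA (27218 and 24432) and ANPEP (4541 and 5013) were well above the floor on both arrays, and MPO (210 with siRNA-Tbet and 127 with siRNAc) was near it. Markers of other cell types lay on both sides. Of the T cell markers, CD2 had 339 with siRNA-Tbet and 663 with siRNAc, CD3E had 249.99 with siRNA-Tbet and 211 with siRNAc, and CD8A stayed below the floor. Of the monocyte markers, LYZ had 684 with siRNA-Tbet and 965 with siRNAc, and CD14 and FCGR1A stayed below the floor. The B cell markers CD79A (528 with siRNA-Tbet and 529.8 with siRNAc) and MS4A1 (88.3 and 183), the erythroid HBB (227 and 152) and the stromal COL1A1 (452 and 609.98) were all low, and COL1A2 was below the floor. Their part in the differences below was not tested. RNA integrity, read as the signal at the 3' end of GAPDH over that at its 5' end, was 0.97 with siRNA-Tbet and 1.01 with siRNAc. The bacterial poly-A transcripts spiked in before labelling were higher on the siRNA-Tbet array at every probe set. The median over the probe sets of the lysine spike was 20650 for siRNA-Tbet, against 1500 for siRNAc, and the part of this difference in the values below was not tested.

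Of the 82 genes, 44 were measured, against 62.2% of all genes on the array, and 38 stayed below the floor on both arrays. Among the 12309 measured genes of the whole array, 2.04% were at least 1.5-fold higher and 2.92% at least 1.5-fold lower with siRNA-Tbet. In the interleukin system, 0 genes were at least 1.5-fold higher and 4 were at least 1.5-fold lower: IL36G, IL17C, IL15 and IL17RC. Of these, IL36G and IL17C were at least 2-fold lower, as were 0.325% of all measured genes. IL17C counted as measured only through its siRNAc signal, so its direction was set by the filter. Among the 36 members above the floor on both arrays 3 were at least 1.5-fold lower, against 2.28% of all such genes. All 4 had signals under the 75th percentile of the array. The measured interleukin genes split almost evenly, with 21 higher and 23 lower, and their median log2 ratio was -0.01. Over all measured genes 46.5% were higher and 53.5% lower, and the median log2 ratio was -0.02. Among the 19 members with a signal above 974 (the 75th percentile of the brighter signal of each probe set), 11 were higher and 8 lower, and the median log2 ratio was 0.02. Of all 7414 genes above that signal 46.9% were higher, with a median log2 ratio of -0.01.

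**Figure D1:**
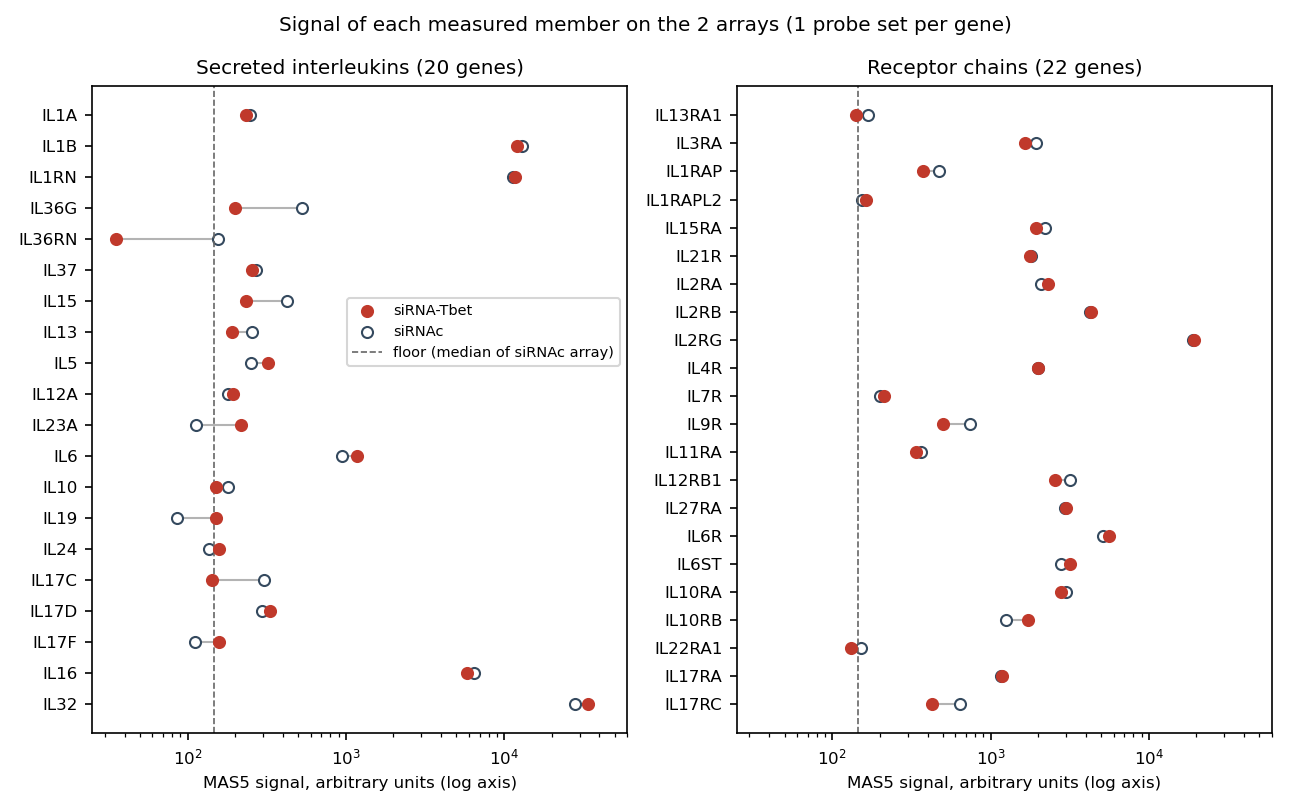
MAS5 signal (log axis, arbitrary units) of the 20 measured secreted interleukins and the 22 measured receptor chains, with filled points for siRNA-Tbet, open points for siRNAc, and a dashed line at the floor of 146. The points of most genes nearly coincide, and the wide gaps (IL36RN, IL36G, IL15, IL17C, IL23A) lie at low signals near the floor.

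Noise grew as signal fell. The log2 ratios of the 2 brightest probe sets of a gene differed with a spread (SD of the difference divided by the square root of 2) of 0.40 in the dimmest of 10 signal bins and 0.17 to 0.18 in the 2 brightest. Both probe sets read the same RNA on the same arrays, so this spread holds no variation between cultures, RNA preparations or arrays. As a second yardstick, each gene was set against all measured genes of its own signal decile, where by construction 5.04% lie above the 95th percentile and 5.04% below the 5th. Of the 44 members, 2 lay above that range (IL10RB and IL32) and 4 lay below it (IL36G, IL15, IL9R and, through a value raised to the floor, IL17C).

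**Figure D2:**
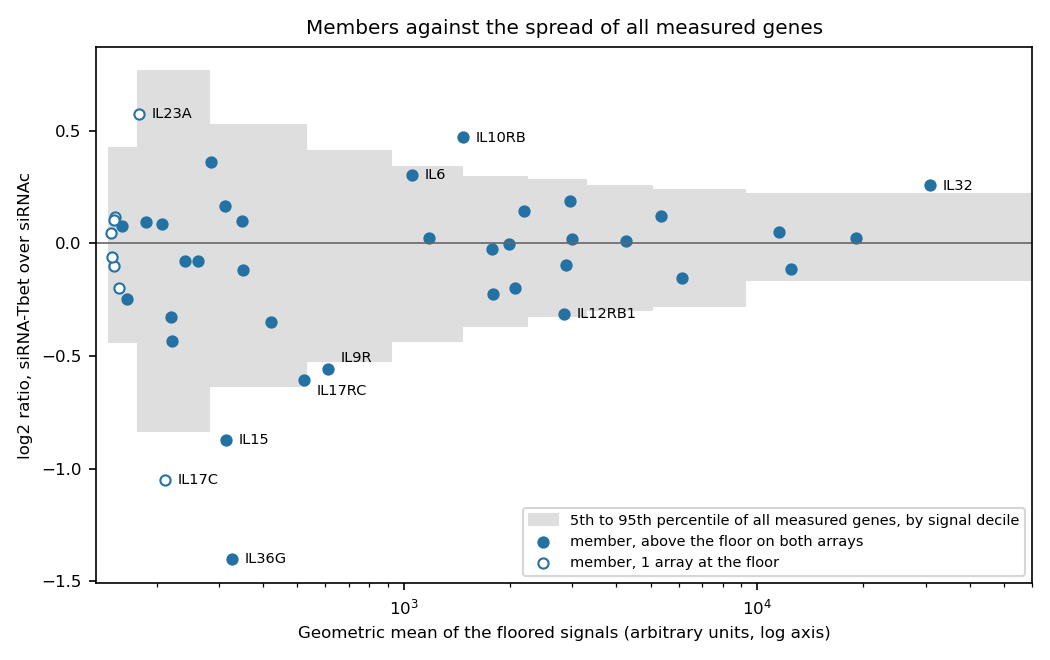
Log2 ratio of siRNA-Tbet over siRNAc against mean signal (log axis) for the 44 measured members, with open points where 1 array was at the floor; the grey band spans the 5th to 95th percentile of all measured genes in each signal decile. IL10RB and IL32 lie above the band and IL36G, IL17C, IL15 and IL9R below it.

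Among the secreted members of the IL-1 family, IL1B and its antagonist IL1RN were well above the floor and differed little at their brightest probe sets. IL1B, the main inflammatory cytokine of the family, had 11994 with siRNA-Tbet and 12985 with siRNAc, a log2 ratio of -0.11, and its second probe set had 10522 and 10878. IL1RN, the receptor antagonist that blocks IL-1, had 11747 with siRNA-Tbet and 11332 with siRNAc, a log2 ratio of 0.05. Its other 3 measured probe sets were also higher, at 3405 against 2669, 2807 against 1781 and 259 against 188, with log2 ratios of 0.35, 0.66 and 0.47. So the size of the IL1RN difference depends on the probe set, while the side does not. IL36G, an agonist known from epithelia, had 201 with siRNA-Tbet and 529.7 with siRNAc on its only probe set. That is 2.64-fold lower, a log2 ratio of -1.40, and only 0.24% of the genes of its signal decile were as low or lower; the spread between probe sets there was 0.40. IL36RN, the antagonist of the IL-36 receptor, had 35.1 with siRNA-Tbet and 157 with siRNAc. Since both lie near or below the floor the ratio is only bounded, at least 1.07-fold lower. It counted as measured only through its siRNAc signal, which fixed its direction. IL1A (234 with siRNA-Tbet and 247 with siRNAc) and IL37 (256 and 269.5), a suppressor of inflammation, differed little, with log2 ratios of -0.08 each. IL37 was read here by a probe set that can cross-hybridise.

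IL15 was the only measured ligand of the receptors that share the common γ chain. IL-15 sustains natural killer cells and memory T cells and is presented by its own receptor chain, IL15RA. IL15 had 233 with siRNA-Tbet, against 426 with siRNAc, and was 1.83-fold lower (log2 ratio -0.87), at percentile 1.38 of its decile. Its second probe set had 161 with siRNA-Tbet and 278 with siRNAc, a log2 ratio of -0.79. Both probe sets were lower by similar amounts at signals within 3-fold of the floor, where the spread was 0.40. IL15RA had 1927 with siRNA-Tbet and 2208 with siRNAc, 1.15-fold lower, inside the range of its decile.

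The receptor chains that IL-15 shares with IL-2 were nearly level. IL2RG, the common γ chain itself, had 19250 with siRNA-Tbet and 18942 with siRNAc, a log2 ratio of 0.02. IL2RB, the β chain shared by IL-2 and IL-15, had 4285 with siRNA-Tbet and 4252 with siRNAc, a log2 ratio of 0.01. IL2RA, the high-affinity IL-2 chain CD25, had 2303 with siRNA-Tbet and 2087 with siRNAc on 1 probe set and 1845 and 1843 on the other. The log2 ratios of these 3 chains thus lay between 0.00 and 0.14 at every measured probe set. IL4R had 1988 with siRNA-Tbet and 1993 with siRNAc. IL21R had 1764 with siRNA-Tbet and 1795 with siRNAc on the probe set that represents it, but its other 2 probe sets, at similar signals, were 1.35-fold and 1.45-fold higher (1496 against 1108 and 1496 against 1032). IL9R, the receptor of IL-9, had 504.5 with siRNA-Tbet and 742 with siRNAc, 1.47-fold lower (log2 ratio -0.56, percentile 3.98). Its other probe sets had log2 ratios of -0.33 and 0.04, so they did not share 1 direction. IL7R, which feeds lymphoid development, had 214 with siRNA-Tbet and 201 with siRNAc, and at its second probe set 101 and 187, the opposite side.

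IL5 and IL13, ligands of the type 2 response, were close to the floor and lay on opposite sides. IL5 had 323 with siRNA-Tbet and 252 with siRNAc, a log2 ratio of 0.36. IL13 had 190 with siRNA-Tbet and 257 with siRNAc, a log2 ratio of -0.43. Neither left the range of its signal decile, and IL4 stayed below the floor on both arrays. IL3RA, the IL-3 receptor chain CD123 of progenitors and leukaemic cells, had 1659 with siRNA-Tbet and 1937 with siRNAc, 1.17-fold lower. IL13RA1 was near the floor, with its 2 measured probe sets on opposite sides.

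Of the ligands of the IL-6 and IL-12 families, IL6, IL12A and IL23A were measured. IL6, an inflammatory cytokine, had 1174 with siRNA-Tbet and 952 with siRNAc on its only probe set, 1.23-fold higher, at percentile 94.1 of its decile. IL23A, the p19 subunit of IL-23, had 218 with siRNA-Tbet and 113 with siRNAc, at least 1.49-fold higher; it counted as measured only through its siRNA-Tbet signal, which fixed its direction. IL12A, the p35 subunit of IL-12, had 193 with siRNA-Tbet and 180 with siRNAc. Only IL6 was well above the floor, and none of the 3 left the range of its decile. IL12B and IL27 stayed below the floor on both arrays.

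Their receptor chains were measured at several probe sets each. IL6R had 5596 with siRNA-Tbet and 5142 with siRNAc, and all 3 of its probe sets were higher, with log2 ratios of 0.12, 0.21 and 0.45. IL6ST, which encodes gp130, the signalling chain shared by IL-6, IL-11 and related cytokines, had 3158 with siRNA-Tbet and 2772 with siRNAc. All 5 of its measured probe sets were higher, with log2 ratios from 0.05 to 0.43, although 2 of them rest on a value raised to the floor. The differences of both chains were small, 1.09-fold for IL6R and 1.14-fold for IL6ST on the representing probe set. IL12RB1, the chain shared by the IL-12 and IL-23 receptors, had 2554 with siRNA-Tbet and 3173 with siRNAc, 1.24-fold lower, at percentile 5.61. Another of its probe sets had 469 with siRNA-Tbet and 719.8 with siRNAc (log2 ratio -0.62), and its remaining probe set was level at 589 and 583. IL27RA had 3013 with siRNA-Tbet and 2974 with siRNAc, with 0.19 on the log2 scale at its second probe set. IL11RA gave opposite answers, with 336 against 365 at 1 probe set and 315 against 172 at the other (log2 ratios -0.12 and 0.88).

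The IL-10 family gave 1 receptor chain outside the range. IL10RB, the accessory chain shared by the receptors of IL-10, IL-22, IL-26 and type III interferons, had 1731 with siRNA-Tbet and 1249 with siRNAc. It was 1.39-fold higher (log2 ratio 0.47) on its only probe set, at percentile 98.5 of its decile, where the spread between probe sets was 0.24. IL10RA, its partner for IL-10, had 2792 with siRNA-Tbet and 2980 with siRNAc, 1.07-fold lower, so the 2 chains lay on opposite sides. IL10RB-DT, a transcript that starts beside IL10RB and runs the other way, had 196 with siRNA-Tbet and 246 with siRNAc, and its second probe set lay on the other side (153 and 126). IL10 itself, which restrains inflammation, had 151 with siRNA-Tbet and 179.7 with siRNAc, close to the floor. IL19 (151 with siRNA-Tbet and 86.1 with siRNAc), IL24 (159 and 136) and IL22RA1 (132 and 153) had 1 array at the floor.

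In the IL-17 family the ligand IL17C and the receptor chain IL17RC were lower. IL17C, known as an epithelial cytokine, had 143 with siRNA-Tbet and 303 with siRNAc, at least 2.07-fold lower. With siRNA-Tbet it was below the floor, so the size is only a bound and the filter set the direction. IL17RC, which pairs with IL17RA to bind IL-17A and IL-17F, had 424 with siRNA-Tbet and 646 with siRNAc, 1.52-fold lower (log2 ratio -0.61). Its second measured probe set had 213 with siRNA-Tbet and 506 with siRNAc, a log2 ratio of -1.24, so both lay on the same side. IL17RA had 1188 with siRNA-Tbet and 1169 with siRNAc, and all 4 of its probe sets were higher, by 0.02 to 0.26 on the log2 scale. The 2 chains of that receptor thus lay on opposite sides. IL17D (329.7 with siRNA-Tbet and 294 with siRNAc) and IL17F (157 and 111) differed little or rested on the floor.

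Of the interleukins outside these families, IL32 had the larger difference. IL32, an inflammatory cytokine of leukocytes, had 33666 with siRNA-Tbet and 28165 with siRNAc on its only probe set, 1.20-fold higher (log2 ratio 0.26). That was at percentile 97.1 of the brightest decile, whose median log2 ratio was itself 0.04, and the spread there was 0.18. Quantile normalization brought the log2 ratio of IL32 down to 0.16. IL16, a chemoattractant for CD4+ cells, had 5831 with siRNA-Tbet and 6484 with siRNAc, 1.11-fold lower. Its second brightest probe set had 433 with siRNA-Tbet and 659 with siRNAc, a log2 ratio of -0.61, and its remaining probe set lay on the other side, at the floor. IL4I1 carries an interleukin symbol but encodes an amino acid oxidase, and had 360.3 with siRNA-Tbet and 337 with siRNAc. The IL-1 receptor accessory chain IL1RAP had 372 with siRNA-Tbet and 474 with siRNAc (log2 ratio -0.35), with 186 and 175 at its second probe set. IL1RAPL2, a related chain, had 164 with siRNA-Tbet and 155 with siRNAc.

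The 38 genes below the floor on both arrays have no ratio here. They include the T cell growth factors IL2, IL4, IL7 and IL21, the colony-stimulating cytokine IL3, the Th17 cytokine IL17A, the Th2-inducing alarmin IL33 and both IL-1 receptors, IL1R1 and IL1R2. Others among them were IL11, IL12B, IL20, IL22, IL25, IL26, IL27, IL34, IL36A and IL36B, and the chains IL5RA, IL13RA2, IL17RB, IL17RD, IL17RE, IL20RA, IL20RB, IL22RA2, IL23R, IL31RA and IL1RL2. The rest were IL1F10, IL17B, IL1RAPL1, IL12A-AS1, IL21R-AS1, IL6-AS1, IL6R-AS1 and IL6ST-DT. The highest signal of any of their probe sets was 141, at IL17RB. A signal below the floor does not show that the transcript was absent.

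Agreement between probe sets could be read for 18 members with 2 or more measured probe sets. In 9 of them all probe sets lay on 1 side, 6 higher (IL1RN, IL2RA, IL6R, IL6ST, IL17RA and IL27RA) and 3 lower (IL1B, IL15 and IL17RC), and in 9 they lay on both sides. Over all genes with several measured probe sets 41.4% had all on 1 side. These counts include probe sets with 1 array at the floor, such as 2 of IL6ST and both measured ones of IL13RA1. The filter fixes the side of such a probe set. Probe sets of 1 gene read the same 2 RNA preparations and are not replicates.

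**Figure D3:**
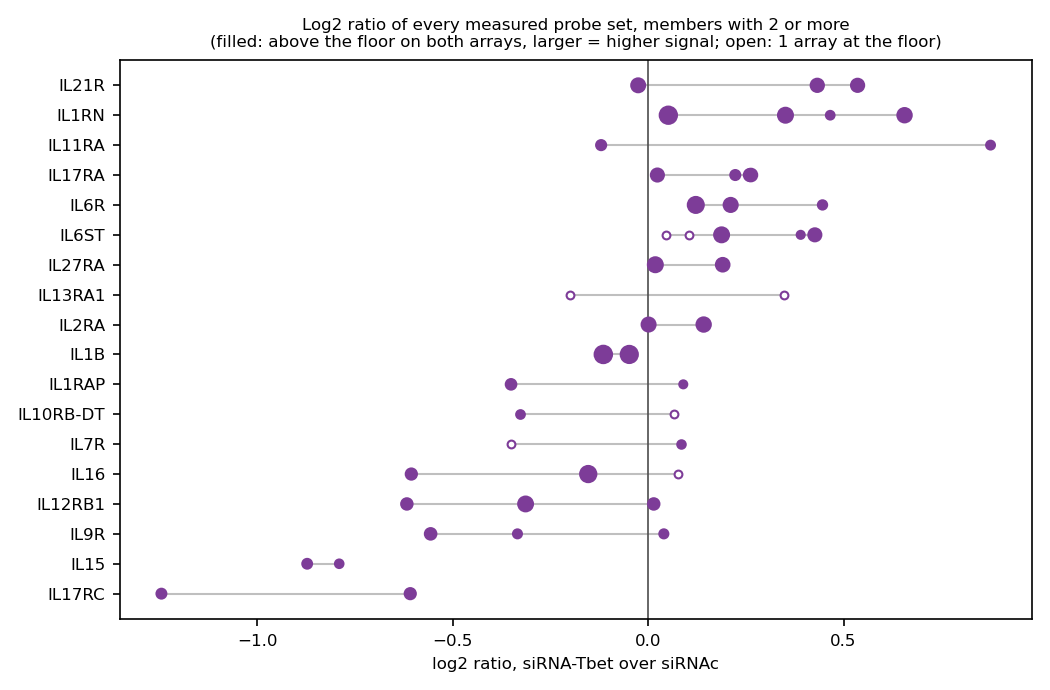
Log2 ratio of siRNA-Tbet over siRNAc for every measured probe set of the 18 members with 2 or more, 1 row per gene; filled points are above the floor on both arrays (larger for higher signal) and open points have 1 array at the floor. Both probe sets of IL15 and of IL17RC lie well below 0, all those of IL1RN, IL6R, IL6ST and IL17RA lie above 0, and those of IL11RA are widest apart.

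Interleukin signalling genes that do not carry the symbol were also read. Of 30 such genes on the array 26 were measured, 17 higher and 9 lower, with a median log2 ratio of 0.05. That is 65.4% higher, against 46.5% of all measured genes, whose median log2 ratio was -0.02. At least 1.5-fold higher were 2, SOCS2 and CNTFR, against 2.04% of all measured genes. SOCS2, a feedback inhibitor of JAK-STAT signalling, had 482 with siRNA-Tbet and 305 with siRNAc, above the range of its decile. Only 1 of its 3 probe sets was measured. CNTFR, a receptor chain of the gp130 group, had 299 with siRNA-Tbet and 199 with siRNAc, inside the range of its decile. At both signals the spread between probe sets was 0.40. None of the 26 was at least 1.5-fold lower; the share over all measured genes was 2.92%, so nothing is read from this count. EBI3, the subunit that IL-27 and IL-35 share, had 6718 with siRNA-Tbet and 5446 with siRNAc, and CSF2RB, the chain shared by the receptors of IL-3, IL-5 and GM-CSF, had 4791 with siRNA-Tbet and 4237 with siRNAc. EBI3 lay above the range of its decile and CSF2RB inside it. Of the 9 lower genes, IRAK2 had 3427 with siRNA-Tbet and 4206 with siRNAc, a log2 ratio of -0.30, below the range of its decile. Its other measured probe set lay on the other side. EBI3, CSF2RB and IRAK2 were chosen after their values were seen.

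Promoter windows of 300 bases (250 before and 50 after the annotated start) were searched on both strands for short motifs, using RefSeq sequences of GRCh38.p14, which held 68 of the 82 genes and 39 of the 44 measured ones. The T-box site AGGTGTGA was found in 1 member, IL7R, and in 0.982% of all 27305 windows. Its shorter core GGTGTG, which lies within that site, was found in 17.9% of the measured members, 16.2% of all 68 and 16.5% of all windows. A κB-type motif (GGGA and TTCC with 2 bases of any kind between them) was found in 4 measured members, IL6, IL32, IL2RA and IL27RA (10.3% of the 39 and 5.88% of all 68 members), and in 1.63% of all windows; the log2 ratios of these 4 genes were 0.30, 0.26, 0.14 and 0.02. The STAT-type motif TTCNNNGAA was found in 7 measured members (17.9% of them), 13.2% of all 68 members and 7.88% of all windows, and the interferon-type motif (GAAA and GAAA with 2 bases between them) in 5.13% of the measured members, 5.88% of all 68 and 3.65% of all windows. The windows of IL10RB and IL10RB-DT overlap and hold the same STAT-type letters. The shares over all windows include genes not measured on these arrays, and no share was computed for the windows of all measured genes. A match describes letters and not a bound site, and a link between a motif and a log2 ratio was not tested. The windows of IL10RB, IL6 and IL32 are printed because these were the 3 largest differences among members above 974 whose probe sets lay on 1 side. Each of these genes has only 1 probe set, so the condition was met without any agreement between probe sets. IL12RB1 (log2 ratio -0.31) was passed over because its probe sets lay on both sides. The windows of IL2RA and IL27RA complete the κB-type set and that of IL7R shows the T-box site. These 3 windows were added after the values were seen. Capitals mark the motifs named above, on either strand. The windows lie at chr21:33266117-33266416 (plus strand, STAT-type letters from base 262 of the window), chr7:22726950-22727249 (plus, κB-type from base 178) and chr16:3065153-3065452 (plus, T-box core from base 75 and κB-type from base 152). The others lie at chr10:6062318-6062617 (minus strand, κB-type from base 41 and T-box core from base 121), chr19:14031512-14031811 (plus, κB-type from base 183) and chr5:35856641-35856940 (plus, T-box site from base 11).
IL10RB: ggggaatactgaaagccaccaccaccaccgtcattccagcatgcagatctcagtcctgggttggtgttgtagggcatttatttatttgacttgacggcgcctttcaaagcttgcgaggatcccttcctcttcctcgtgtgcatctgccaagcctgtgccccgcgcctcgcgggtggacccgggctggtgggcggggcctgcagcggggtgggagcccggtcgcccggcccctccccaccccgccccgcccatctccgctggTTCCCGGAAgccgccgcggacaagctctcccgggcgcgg
IL6: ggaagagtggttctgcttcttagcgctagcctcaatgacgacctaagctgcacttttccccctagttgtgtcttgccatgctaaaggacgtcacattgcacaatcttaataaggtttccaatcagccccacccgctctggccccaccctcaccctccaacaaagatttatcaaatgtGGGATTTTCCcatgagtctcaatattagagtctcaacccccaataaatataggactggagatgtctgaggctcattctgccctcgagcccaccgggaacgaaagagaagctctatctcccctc
IL32: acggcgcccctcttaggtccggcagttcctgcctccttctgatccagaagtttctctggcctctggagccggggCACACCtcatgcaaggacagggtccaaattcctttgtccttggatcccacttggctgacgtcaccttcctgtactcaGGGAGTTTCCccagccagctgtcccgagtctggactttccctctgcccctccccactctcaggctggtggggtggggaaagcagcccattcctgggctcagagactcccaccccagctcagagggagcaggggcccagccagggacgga
IL2RA: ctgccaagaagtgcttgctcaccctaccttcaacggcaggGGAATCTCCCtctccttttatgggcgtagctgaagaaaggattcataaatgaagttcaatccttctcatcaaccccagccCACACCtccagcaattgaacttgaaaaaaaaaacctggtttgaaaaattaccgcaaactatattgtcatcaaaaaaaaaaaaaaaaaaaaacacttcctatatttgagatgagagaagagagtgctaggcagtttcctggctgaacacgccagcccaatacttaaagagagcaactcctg
IL27RA: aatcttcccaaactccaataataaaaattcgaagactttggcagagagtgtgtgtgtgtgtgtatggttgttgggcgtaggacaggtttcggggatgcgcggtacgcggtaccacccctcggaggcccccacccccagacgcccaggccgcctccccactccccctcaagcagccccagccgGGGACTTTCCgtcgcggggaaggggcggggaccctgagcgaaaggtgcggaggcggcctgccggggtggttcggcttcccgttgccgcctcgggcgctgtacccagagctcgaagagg
IL7R: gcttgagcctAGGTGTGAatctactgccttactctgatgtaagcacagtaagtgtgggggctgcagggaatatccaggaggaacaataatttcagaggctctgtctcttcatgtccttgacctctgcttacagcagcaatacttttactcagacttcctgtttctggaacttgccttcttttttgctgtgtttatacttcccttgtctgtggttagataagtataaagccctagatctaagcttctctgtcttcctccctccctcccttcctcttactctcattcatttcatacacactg
IL7R, with the T-box site, had signals near the floor and probe sets on opposite sides, as given above. IL36G, IL15 and IL17RC, the members at least 1.5-fold lower and above the floor on both arrays, were searched where a window was given. The windows of IL36G and IL17RC held none of the 5 motifs, and IL15 had no window. Other lower members above the floor on both arrays did hold motifs. The STAT-type motif was found in IL3RA, IL15RA, IL1B and IL10RB-DT, and the T-box core in IL37.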

How the data were processed

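The data are 2 Affymetrix 3' expression arrays of KG1 cells, 1 per group, made from 1 µg of total RNA each. Per the submitters' processing notes the deposited intensity values were made by the authors with MAS5, which combines the matched and mismatched probes of a probe set; its version and settings are not given in the sources used here. The 2% trimmed mean was 1000 on both arrays, so no further scaling was applied in the main setting. Low MAS5 signals are noisy, and differences between very bright signals can be understated.

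Gene names came from the platform annotation: of 54675, 41097 had 1 gene, 1801 had several and 11777 are unnamed here. Symbols were updated through Entrez numbers against RefSeq GRCh38.p14, which matched 41043 probe sets, all 146 of the members among them. The 62 control probe sets were kept apart.

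Ratios are siRNA-Tbet over siRNAc on the log2 scale. A common floor was used for both arrays, since separate floors of 144 and 146 can turn the sign of a dim gene. Each gene was represented by its brightest measured probe set (by mean log2 signal), leaving out the suffix _x_at (cross-hybridising) where the gene had another. A fold of 1.5 was used as a size, not a test. Every measured member is named. Other genes are TBX21, IFNG, cell markers, listed signalling genes past 1.5-fold and, chosen after their values were seen, EBI3, CSF2RB and IRAK2. Members, lists and thresholds were chosen with earlier results of these data known. The procedure was tested on simulated arrays with known changes. The simulated noise was the same at every signal, and only genes above the floor on both arrays were checked. The test therefore does not cover the larger noise at low signals. Scalings, floors, probe set choices and folds were varied. Python 3.11.15, pandas 2.3.3, scipy 1.17.1 and statsmodels 0.14.6 were used.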

Additional observations from a re-analysis of the deposited data

How the results depend on the processing

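No paired analysis was possible because each group has 1 array, and for the same reason no replicate could be left out. Across settings, the members' median log2 ratio stayed between -0.02 and 0.08 under all alternatives, on both sides of 0. The count of members at least 1.5-fold higher, 0 in the main setting, was 1 after median scaling, quantile normalization or removal of the lowess trend, in each case IL23A, which lies just below the threshold. Under each of these changes 2.3% of all measured genes were at least 1.5-fold higher. The count was 1 (IL11RA) among the 18 members with a second probe set, against 3.42% of all 6140 such genes. With a floor at the 25th percentile, 76 members counted as measured, 14 higher and 11 lower; with no floor or filter, 82, with 17 higher and 19 lower. Of all genes, 10.5% were 1.5-fold higher and 10.5% lower with the floor at the 25th percentile, and 14.6% higher and 14.8% lower without a floor. With a floor at the 75th percentile 19 members were measured and 0 were 1.5-fold lower, since IL36G, IL17C, IL15 and IL17RC all drop out there. At 2-fold 2 members were lower (IL36G and IL17C), and past a log2 ratio of 0.32 on either side 3 were higher and 8 lower, against 7.78% and 11.1% of all measured genes. Where they could be computed, the 4 lower members kept their direction. Their log2 ratios were -1.40 to -1.38 for IL36G, -1.08 to -1.05 for IL17C, -0.87 to -0.79 for IL15 and -1.24 to -0.59 for IL17RC. These members were picked for being lower on the same arrays, so a kept direction adds no support. For IL17C the filter of the main setting also fixed it. Of 428 values of single members under the alternatives, 24 moved by more than the spread between probe sets, and 20 (in 11 genes) had the opposite sign. With second probe sets, 11 of the 18 members moved. No value moved under the scalings, the floor at the 75th percentile, a separate floor per array or with _x_at allowed. Members with 1 measured probe set cannot change under the choice of probe set, so part of the 428 values could not move. The medians of small families moved with the genes that a lower floor lets in. At the 25th percentile they were 0.26 for common γ chain ligands, 0.024 for IL-17 receptor chains and 0.26 for the other interleukins. Without a floor they were -0.70 for IL-1 family ligands, 0.26 for common γ chain ligands, 0.36 for the IL-3, IL-5 and IL-13 group, 0.024 for IL-17 receptor chains and 0.26 for the other interleukins. At the 75th percentile they were 0.19 for IL-10 receptor chains and 0.024 for IL-17 receptor chains. With second probe sets they were 0.35 for the IL-3, IL-5 and IL-13 group, -0.61 for the other interleukins and 0.15 for the signalling genes outside the symbol. Restricting to genes above the floor on both arrays, an alternative chosen after seeing the data, left the median at -0.01 with 3 members 1.5-fold lower. Of all genes in that setting 2.28% were 1.5-fold lower.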

Other observations

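Outside the comparison lie 2 probe sets that the annotation pairs with an interleukin symbol and a second gene. The one shared by IL4I1 and NUP62 read 149 with siRNA-Tbet and 112 with siRNAc. The one shared by IL23A and TRBV19, a T cell receptor gene, had 21.0 with siRNA-Tbet and 21.0 with siRNAc, below the floor.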
